A study of Caenorhabditis elegans with 2 samples.

Results

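The ceh genes of Caenorhabditis elegans encode homeodomain transcription factors, and 57 of them are described here for where the embryonic UNC-62 protein sits around them. They are the protein-coding genes of the WBcel235 annotation whose symbol starts with ceh-, among 19973 protein-coding genes on the nuclear chromosomes. Left out were ceh-13 (a Hox gene), ceh-20, ceh-40 and ceh-60 (PBC class), and ceh-24 and ceh-34. The rule used gene names only and no binding value, but it was set with earlier results of these data known. Every member carries a ceh symbol, and 31 of them were put in a homeobox class from general knowledge, while 26 were given none.

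The study mapped UNC-62, fused to the TY1, EGFP and FLAG tags, by ChIP-seq in whole embryos of mixed stages from C. elegans strain OP600. The worms carried the insertion wgIs600, which holds the fusion gene and unc119, on the unc119(ed3) background, and males and females were pooled. There was 1 group with 2 biological replicates from separate biosamples. All embryos carried the fusion, no other condition is among the samples, and the control used in peak calling was not analysed here. The sources used here do not say which cells expressed the fusion, or at what level. Whole embryos were used, so a strong signal in few cells and a weak signal in many cannot be told apart.

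UNC-62 is a TALE-class homeodomain protein of the Meis/Prep family, and it binds DNA alone, with PBC-class partners and with Hox proteins. The ceh genes cover many other homeodomain classes. POU, LIM, sine oculis, Otx and other paired-like members mostly set the identity of neurons, ONECUT genes act in neurons and in sex determination, and the NK2, engrailed and Distal-less members act in the pharynx, the epidermis and the head. Meis proteins are known to regulate other transcription factor genes through sites far from the promoter as well as near it. A binding site does not show that a gene is regulated.

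A peak is a stretch of the genome with more ChIP reads than the control, and its summit is the point of highest signal. The irreproducible discovery rate (IDR) step sets a threshold from how well the rankings of peak lists match. After it the authors retained 2754 peaks on ce11, of which 2732 were nuclear. These were the 2754 strongest peaks of the pooled list, so a single retained peak can rank differently in the 2 replicates or lack a peak in 1 of them. The lists of replicate 1 and replicate 2, which include background, held 21749 and 30000 peaks. The signal is the authors' caller's own value, so signals were compared only within a list, and between replicates by rank. Read depth is unknown, so binding below the threshold cannot be told from its absence.

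The sequences below are from the peaks at the start of, or inside, 4 of the 5 members that had one, followed by 2 upstream peaks that hold the Meis core TGACAG. The last 2 were added after their values were seen. Each is read 5′ to 3′ on the strand of the gene, from the RefSeq sequence of WBcel235, and capitals mark matches on either strand to TGACAG, TGATTGAT, TGATTTAT, TGATTAAT or GAGAGA. The ceh-38 stretch is the part of its peak before the gene start, up to the end of the motif that spans the start (chrII:6951375-6951526, plus strand). The others reach 50 bases to each side of the summit: ceh-18 intron (chrX:3854058-3854158, minus strand), ceh-39 upstream (chrX:1856314-1856414, minus), ceh-16 intron (chrIII:8624754-8624854, plus), ceh-18 upstream (chrX:3858833-3858933, minus) and ceh-33 upstream (chrV:5325760-5325860, minus).
ceh-38 start: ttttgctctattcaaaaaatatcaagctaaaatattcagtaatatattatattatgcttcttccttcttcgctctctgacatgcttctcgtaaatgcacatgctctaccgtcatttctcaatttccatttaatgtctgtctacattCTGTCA
ceh-18 intron: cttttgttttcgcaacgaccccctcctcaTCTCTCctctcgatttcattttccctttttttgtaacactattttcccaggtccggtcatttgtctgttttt
ceh-39 upstream: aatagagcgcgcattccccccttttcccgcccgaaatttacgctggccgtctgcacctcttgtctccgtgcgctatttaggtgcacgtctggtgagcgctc
ceh-16 intron: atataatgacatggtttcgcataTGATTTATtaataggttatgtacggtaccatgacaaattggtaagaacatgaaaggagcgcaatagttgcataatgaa
ceh-18 upstream: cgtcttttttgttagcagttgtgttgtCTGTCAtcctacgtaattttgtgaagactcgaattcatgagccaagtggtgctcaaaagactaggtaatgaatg
ceh-33 upstream: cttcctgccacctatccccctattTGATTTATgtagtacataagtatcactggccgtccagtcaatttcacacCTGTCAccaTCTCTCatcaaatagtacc

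Few members had an IDR summit at the start. The start window reached 1000 bp upstream and 500 bp downstream of the outermost annotated start. It held a summit at 2 of the 57 members, ceh-38 and ceh-39, which is 3.51% (exact binomial 95% interval 0.428 to 12.1), against 6.18% of all protein-coding genes. The share of all genes lies inside the members' interval. Both genes belong to the ONECUT class, whose proteins join a cut domain to a homeodomain.

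The strongest peak of any member lay on the start of ceh-38 (WBGene00000459, chromosome II 6951526 to 6955409, plus strand). The peak covered 6951375 to 6951750, with its summit 37 bp downstream of the start, in an exon, outside the coding sequence. Its signal was 190.2, which ranked 284 in the IDR list. It was about as strong in both replicates, with ranks of 306 in replicate 1 and 281 in replicate 2 and summits 35 and 30 bp downstream of the start. TGACAG lay on the opposite strand at 6951521 to 6951526, so that its first base pairs with the first base of the gene. It reads CTGTCA at the end of the first sequence above. No other summit lay closer than 13197 bp to the gene.

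The peak at ceh-39 (WBGene00000460, chromosome X 1853874 to 1856172, minus strand) was weaker and uneven between replicates. The gene acts in sex determination as one of the X-linked signals that count X chromosomes. Its peak covered 1856176 to 1856551, with a summit 192 bp upstream of the start, a signal of 74.0 and an IDR rank of 2022. It ranked 1854 in replicate 1 and 4566 in replicate 2. With the 2754 strongest peaks of replicate 2 alone, that is without replicate 1, only ceh-38 was left, so the count of members was 1. The centre of the peak held none of the 5 motifs and had a GC content of 58.4%, the highest of the 6 sequences above.

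The same summit was the only IDR summit within 10 kb of 2 further ONECUT genes. On X, ceh-39, ceh-21 and ceh-41 lie in a row on the minus strand. The summit lay 3628 bp upstream of the start of ceh-21 and 7689 bp upstream of that of ceh-41. The next IDR summit lay 189099 bp from ceh-39, 192535 bp from ceh-21 and 196596 bp from ceh-41, so in the IDR list the summit stood alone here. The replicate lists held other peaks. In replicates 1 and 2, start summits lay 851 and 940 bp upstream of ceh-21, and 787 and 457 bp upstream of ceh-41. Without replicate 1, ceh-21 and ceh-39 still had a summit within 10 kb, and ceh-41 did not. The shared peak, at rank 4566 in replicate 2, was too weak for that set, so another peak lay nearby. The ONECUT gene ceh-49 had no IDR summit within 10 kb, and ceh-48 had one 7988 bp upstream (signal 108), inside C17H12.11 and nearest to the start of C17H12.37. In all 5 of the 6 ONECUT genes had a summit within 10 kb, from 3 distinct summits, against 36.8% of all genes. On X, where 3 of the 6 lie and share 1 summit, the share of all genes was 49.9%.

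Inside the gene, from annotated start to end, 4 members had 1 summit each, namely ceh-38, ceh-16, ceh-18 and ceh-43. That is 7.02% (1.95 to 17), against 3.42% of all protein-coding genes, which again lies inside the members' interval. Longer genes have more room for a summit, and the median length was 2818 bp for the members and 2027 bp for all genes. The 3 summits besides that of ceh-38 lay in introns.

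The gene ceh-43, the Distal-less gene of the worm, which acts in the anterior embryo and in dopaminergic neurons, had peaks with high signals (WBGene00000463, chromosome III 4446638 to 4449943, minus strand). Its intronic summit, 1743 bp downstream of the start, had a signal of 147 and an IDR rank of 553. The peak, at 4448177 to 4448273, ranked 341 in replicate 1 and 1197 in replicate 2. A further summit lay 4069 bp upstream in intergenic sequence, with a signal of 153, an IDR rank of 500 and replicate ranks of 601 and 472. Both had ceh-43 as the nearest start, and both peaks were narrow, at 97 and 107 bp, where 26 of the 31 summits near members sat in peaks of 376 bp. The intronic peak held TGACAG within 50 bp of its summit, and the upstream one held none of the 5 motifs.

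The gene ceh-16, the engrailed gene of the worm, which acts in the lateral epidermis, had 3 weaker summits (WBGene00000439, chromosome III 8622735 to 8626314, plus strand). The intronic one, 2069 bp downstream of the start, had a signal of 69.2, an IDR rank of 2222 and replicate ranks of 2871 and 2164. It holds TGATTTAT, a PBC-Hox type site, as the fourth sequence above shows. The other summits lay 2270 and 3289 bp upstream, with signals of 92.4 and 85.9, and the start nearest to both was that of C13G5.2. In the replicate lists ceh-16 also had a start summit at the same place, 883 bp upstream in replicate 1 and 887 bp upstream in replicate 2. Its ranks there were 2832 and 7909, so it fell just short of the 2754 strongest in replicate 1.

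The POU gene ceh-18, which acts in the gonadal sheath and in oocyte meiosis, had 3 summits (WBGene00000441, chromosome X 3843367 to 3857797, minus strand). At 14431 bp it is longer than every other member except ceh-100 (21503 bp). The intronic summit, 3689 bp downstream of the start, had a signal of 78.1 and ranked 1502 in replicate 1 and 6715 in replicate 2. The summit 1086 bp upstream, 86 bp beyond the start window, had a signal of 71.4 and ranked 1684 and 4168. In replicate 2 the summit of the matching peak was inside the start window, at -948 bp from the start. The third, past the 3′ end and nearest to ttr-48, had a signal of 63.1. The 2 summits nearest to the ceh-18 start both ranked higher in replicate 1 than in replicate 2. TGACAG was found at the upstream summit and GAGAGA at the intronic one.

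**Figure D1:**
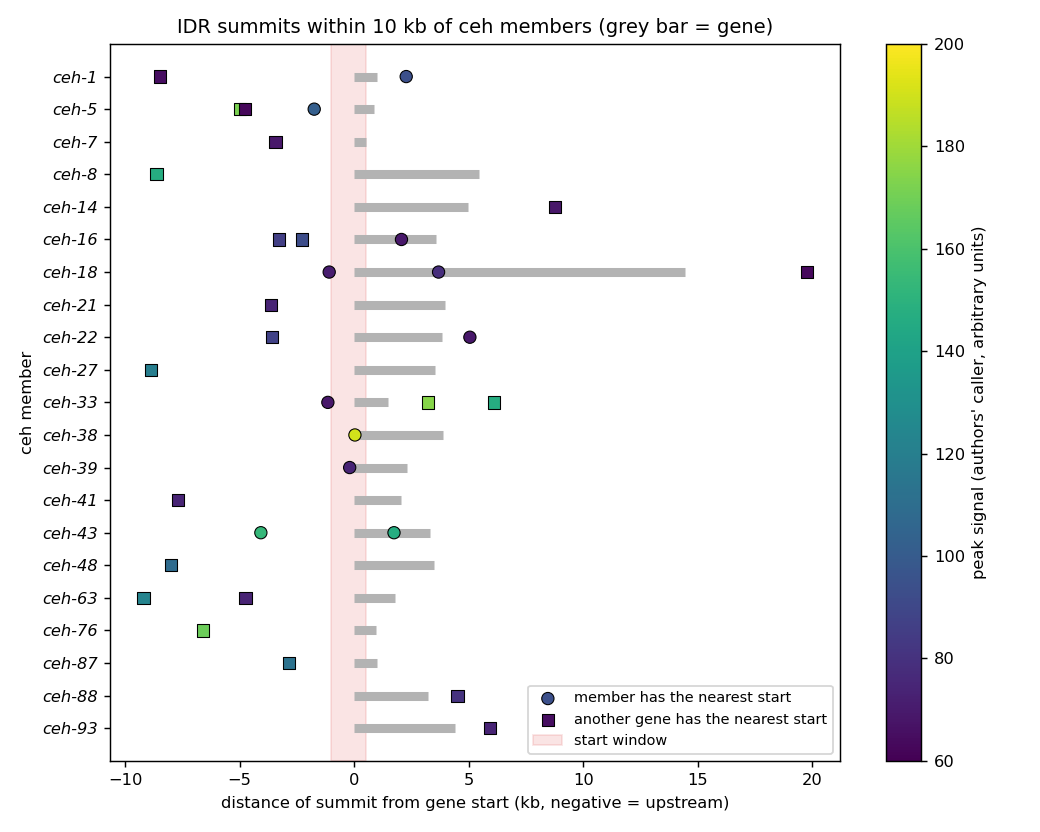
Each point is an IDR summit within the gene or 10 kb to either side of 1 of 21 ceh members, placed by its distance from the gene start in kb (negative is upstream) and coloured by the peak signal of the IDR list. Grey bars are the genes, the shaded band is the start window, and circles mark summits whose nearest protein-coding start is that of the member. The band holds points in the rows of ceh-38 and ceh-39 only.

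Within the gene or 10 kb to either side, 21 of the 57 members had a summit, which is 36.8% (24.4 to 50.7), against 36.8% of all protein-coding genes. The mean number of summits in that reach was 0.579 for the members and 0.871 for 31 other homeobox genes, against 0.582 for all genes. Of the 21 members, 13 had 1 summit, 4 had 2 and 4 had 3. Of the 33 pairs of member and summit, 21 lay upstream, 4 inside and 8 downstream. The farthest counted summit lay 9198 bp upstream of ceh-63, and among members with none the nearest summit lay 11809 bp from ceh-10.

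Most of these summits lay nearer to the start of another gene. The 33 pairs came from 31 distinct summits, of which 11 had a member as the nearest start and 20 did not. Counting a summit only for the gene of the nearest start, and within 10 kb, 9 members had one (15.8%, 7.48 to 27.9), against 10.4% of all genes. They were ceh-1, ceh-5, ceh-16, ceh-18, ceh-22, ceh-33, ceh-38, ceh-39 and ceh-43. All 9 belong to the 31 members given a homeobox class here from general knowledge. A member given none is not thereby outside the known classes. Of the 26 members given none, 0 were nearest, 0 had a summit at the start or inside, and 6 had one within 10 kb, against 15 of the 31 given a class. The 7 members over 100 kb from any IDR summit, several of them neighbours, were all given none. In the weaker replicate lists the split was not seen. Of the 20 members with a start summit in both lists, 10 were given no class. Median gene length was 3306 bp for members given a class and 2727 bp for those given none. The classes were listed with earlier results of these data known, and the split in IDR summits was noticed afterwards and carries no test.

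The remaining members with a nearest summit had it outside the gene. The NK2 gene ceh-22, which acts in pharyngeal muscle, had a summit 5056 bp downstream of its start, past its 3′ end, with a signal of 68.9. That summit ranked 5650 in replicate 1 and 1146 in replicate 2, so it was high in replicate 2 and low in replicate 1. A second, 3573 bp upstream with a signal of 87.4, lay in an intron of twk-12. The NK1-type gene ceh-1 had one 1286 bp past its 3′ end, with a signal of 94.2 and replicate ranks of 1468 and 1389, which are close, and another 8483 bp upstream (65.2) nearest to nhr-45. The Vax-type gene ceh-5 had one 1740 bp upstream, inside ocrl-1 and eat-16, with a signal of 102 and ranks of 1847 and 639.

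The sine oculis class gene ceh-33 stands beside ceh-34, a gene of that class that is no member, and the 2 stronger of its 3 summits were nearest to ceh-34. Those had signals of 174.5 (3233 bp downstream of the ceh-33 start) and 146.5 (6117 bp downstream, in an intron of ceh-34). The summit nearest to the ceh-33 start lay 1144 bp upstream, 144 bp beyond the start window, in an intron of C10G8.8. Its signal was 69.0, and it ranked 1526 in replicate 1 and 9813 in replicate 2, the lowest replicate rank among the member summits. It held TGACAG, TGATTTAT and GAGAGA in 1 window, at places that do not overlap, as in the last sequence above.

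With the window widened to 2000 bp upstream, ceh-5, ceh-18 and ceh-33 were added and 5 members had a start summit, against 8.89% of all genes.

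Of the summits that were nearest to other genes, several had high signals. The one 6610 bp upstream of ceh-76, nearest to Y97E10AR.1, had a signal of 169 and ranked 471 and 262 in the replicates. The one 4978 bp upstream of ceh-5, nearest to eat-16, had a signal of 172 and overlapped a second peak of 62.6, and both matched the same peak in each replicate. The one 8623 bp upstream of ceh-8, a Rax-type paired-like gene, had 147 and was nearest to sre-23. Lower ones lay near ceh-27 (119, nearest to lgc-44), ceh-87 (113, nearest to sup-9) and ceh-63 (123, in an intron of tsp-17, and 73.3, nearest to tag-52). For ceh-7, ceh-14, ceh-88 and ceh-93 the signals ran from 68.3 to 80.6, with the nearest starts those of cup-16, F46C8.3, C49C3.15 and ife-2. The LIM gene ceh-14, which acts in thermosensory neurons, was the only LIM member.

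The other 36 members had no summit within 10 kb. Among them were the POU gene ceh-6, the Otx genes ceh-36 and ceh-37, the Bar genes ceh-30 and ceh-31, the sine oculis class gene ceh-32, the NK2 gene ceh-28, and ceh-10, ceh-17 and ceh-45 of the paired-like class. The ANTP-class genes ceh-2, ceh-12, ceh-19, ceh-23 and ceh-51 and the ONECUT gene ceh-49 were also in this group. So were ceh-9, ceh-53, ceh-54, ceh-57, ceh-58, ceh-62, ceh-74, ceh-75, ceh-79, ceh-81, ceh-82, ceh-83, ceh-84, ceh-86, ceh-89, ceh-90, ceh-91, ceh-92, ceh-99 and ceh-100, which were given no class. Their nearest summit lay 11809 to 497705 bp away, with a median of 23538 bp, and 14 of these 36 genes had it within 20 kb.

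Some members lay in long stretches without an IDR summit. For 7 of the 57 members (12.3%) the nearest IDR summit was over 100 kb away, against 7.39% of all genes. Among the 31 other homeobox genes it was 1 (3.23%). Of the 7 members, 5 lay on the left part of chromosome II. The distance was 228365 bp for ceh-81, 230194 bp for ceh-82, 231678 bp for ceh-83, 497705 bp for ceh-84 and 255064 bp for ceh-86. Neighbours share such a stretch and are not separate observations. The rest were ceh-91 and ceh-92 on III, at 162571 and 127425 bp. These stretches were not all free of weaker peaks. A start summit was in both replicate lists for ceh-86 and ceh-91 and in replicate 1 for ceh-92. For ceh-81, ceh-82, ceh-83 and ceh-84 neither list had one. The median distance over all members was 14792 bp, against 10775 bp over the other homeobox genes and 16825 bp over all genes.

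The shares within 10 kb were higher on X than on the autosomes, for the members and for all genes. On X, 8 of 16 members had a summit within 10 kb, against 49.9% of the 2731 genes of X. On the autosomes, 13 of 41 members had one (31.7%), against 34.7% of the 17242 autosomal genes. At the start the shares were 1 of 16 members on X (ceh-39) against 8.71% of X genes, and 1 of 41 autosomal members (ceh-38) against 5.78% of autosomal genes. Inside the gene, 1 of 16 members on X had a summit (6.25%), against 6.04% of X genes, and 3 of 41 autosomal members had one (7.32%), against 3.00% of autosomal genes.

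**Figure D2:**
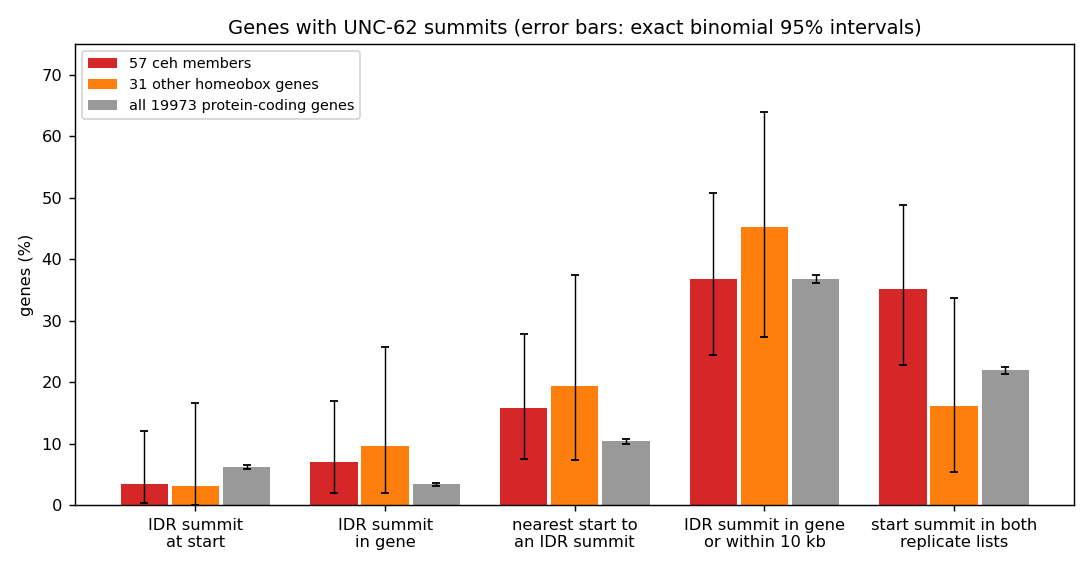
Bars give the percentage of genes with an UNC-62 summit by 5 measures, for the 57 ceh members, 31 other homeobox genes and all 19973 protein-coding genes, with exact binomial 95% intervals as error bars. For the start, the gene and the 10 kb reach, the members' intervals hold the value of all genes, and the start share in both replicate lists was 35.1% for the members and 22% for all genes.

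A list of 31 homeobox genes with other symbols, without Hox and TALE genes and with all symbols found in the annotation, had a start summit at 1 gene (3.23%, 0.0816 to 16.7) and a summit inside 3 (9.68%, 2.04 to 25.8). The 3 were zag-1, a zinc finger homeobox gene with 1 start summit and 2 summits inside (strongest signal 133), the caudal gene pal-1 (70.0) and the Pax6 gene vab-3 (63.7). Within 10 kb, 14 of the 31 had a summit (45.2%, 27.3 to 64.0). The median gene length in this list was 4502 bp and the median gap to the next gene upstream 5511 bp, and the members had 2818 and 1750 bp, so the lists also differ in the room around their genes. Over all genes that gap had a median of 937 bp.

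More members showed a start summit once the weaker peaks of the replicate lists were read. In the list of replicate 1, 27 members had a summit in the start window (47.4%, 34 to 61.0), as did 15 of the 31 other homeobox genes (48.4%), against 33.3% of all genes. In the list of replicate 2 it was 32 members (56.1%, 42.4 to 69.3) and 11 of the 31 other homeobox genes (35.5%), against 42.4% of all genes. Both lists had one at 20 members (35.1%, 22.9 to 48.9), against 22% of all genes, and the lower end of the members' interval lies just above that share. This interval treats genes as independent, which neighbours are not, and it is no test. Among the other homeobox genes it was 5 of 31 (16.1%, 5.45 to 33.7). Replicate 1 alone had one at 7 members, replicate 2 alone at 12, and 18 had none in either list. These lists include background by construction, and the summits of both lists need not coincide.

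When the summits of both lists had to lie within 100 bp of each other, 11 members were left (19.3%, 10 to 31.9), against 14.1% of all genes, and the members' interval then holds that share. Besides ceh-38 and ceh-39 these were ceh-16, ceh-21, ceh-30, ceh-58, ceh-63, ceh-88, ceh-89, ceh-93 and ceh-99. None of these 9 reached the 2754 strongest peaks of either replicate at its start. The Bar gene ceh-30, which keeps male sensory neurons alive, had summits 650 and 661 bp upstream in replicates 1 and 2, with ranks of 13274 and 5424. For ceh-89 the summits lay 500 and 508 bp upstream, with ranks of 6461 and 3472.

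**Figure D3:**
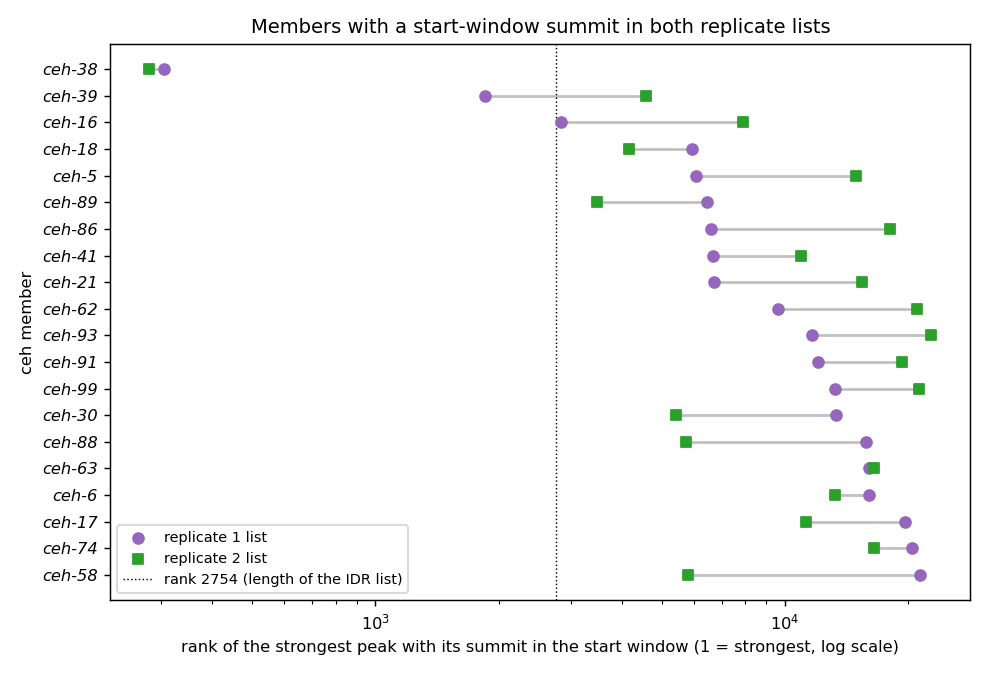
For the 20 ceh members with a summit in the start window in both replicate lists, points give the rank of the strongest such peak in replicate 1 (circles) and replicate 2 (squares) on a log axis, where 1 is the strongest. Only ceh-38 lies left of rank 2754 in both lists, with 306 and 281, and ceh-39 does so in replicate 1, at 1854.

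Inside the gene, both replicate lists had a summit in 15 members (26.3%, 15.5 to 39.7), against 20.6% of all genes. In the longer genes of the other homeobox list it was 18 of 31 (58.1%, 39.1 to 75.5).

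All 31 summits near members had a peak in both replicate lists, by an overlap of at least 1 bp, against 99.0% of all nuclear IDR summits (2706 of 2732), so the members' share is near that of the whole list. Their median IDR signal was 87.4, from 62.6 to 190.2, against a median of 94.4 over all 2732 nuclear peaks, whose signals reached 973. Of the 31, 13 (41.9%) were among the 1377 strongest peaks of the list, against 49.7% of all nuclear peaks. Both replicates had the peak among their 2754 strongest for 22 of the 31 (71.0%), against 71.0% of all nuclear peaks. For the 11 summits nearest to a member it was 5 (45.5%). The 5 were those of ceh-38, ceh-1 and ceh-5 and both of ceh-43. Of the other 6, 4 missed in replicate 2 only, namely ceh-33, ceh-39 and both of ceh-18, and 2 missed in replicate 1 only, namely ceh-16 and ceh-22.

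Across the 31 peaks, Spearman's rho between the signals of both replicates was 0.52, against 0.62 across all nuclear peaks found in both. These are correlations across peaks of the same pair of libraries, all from the IDR list, and they carry no p.

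**Figure D4:**
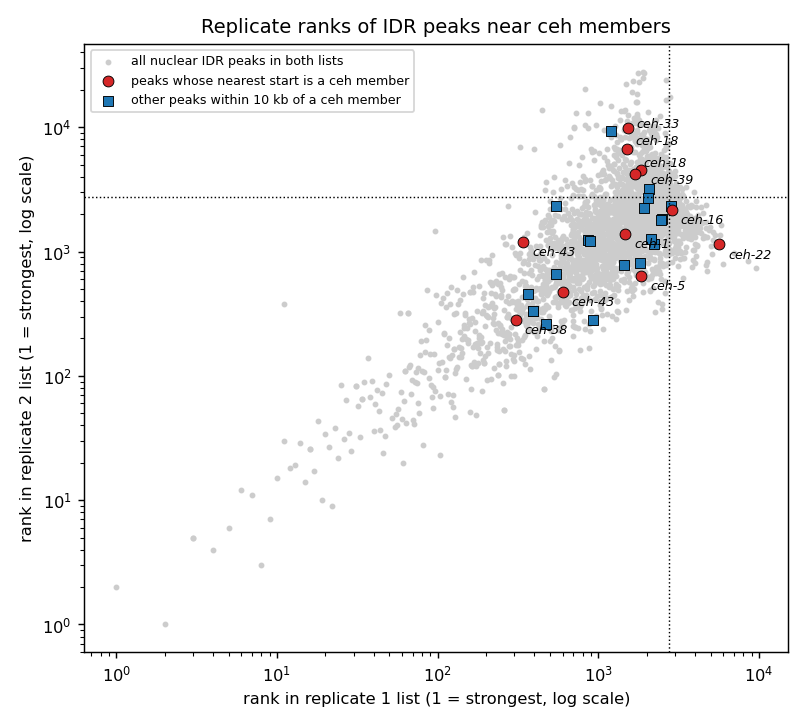
Each point is an IDR peak by its rank in replicate 1 (x) and replicate 2 (y), on log axes where 1 is the strongest. Grey points are all nuclear IDR peaks in both lists, red circles the 11 peaks nearest to a ceh member and blue squares the other 20 near members, and dotted lines mark rank 2754. The ceh-38 peak and both ceh-43 peaks lie lower left of both lines, while the ceh-33 peak lies at 1526 and 9813.

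Summits near members lay mostly in intergenic sequence and introns. Of the 31, 18 were intergenic (58.1%), 10 intronic (32.3%), 2 in exons outside coding sequence and 3′ untranslated regions, 1 in a 3′ untranslated region and 0 in coding sequence. Over all nuclear summits, 65.8% were intergenic, 29.5% intronic and 0.988% in coding sequence.

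Motifs were counted on both strands within 50 bp of the summit, and a match describes the letters and not a bound site. TGACAG, the Meis core, was present at 5 of the 31 summits (16.1%, 5.45 to 33.7), against 12.8% of all nuclear summits. In windows 500 bp to the sides it was present in 4.84% for the members' summits and 3.4% for all nuclear summits. Of the 11 summits nearest to a member, 4 held it (36.4%, 10.9 to 69.2), at ceh-18, ceh-33, ceh-38 and ceh-43. The interval is wide at this number of summits and its lower end is below the share of all summits. In the windows 500 bp to the sides of these 11 summits, 2 of 22 held TGACAG (9.09%). TGATTTAT was present at 2 (6.45%, 0.791 to 21.4), at ceh-16 and ceh-33, against 2.67% of all. TGATTGAT and TGATTAAT were found at 0 of the 31, which allows up to 11.2% by the exact interval, against 3.40% and 0.805% of all. GAGAGA was present at 7 (22.6%, 9.59 to 41.1), against 31.9% of all. In windows 500 bp to the sides it was present in 6.45% for the members' summits and 5.82% for all. Of the 11 summits nearest to a member, 3 held GAGAGA (27.3%, 6.02 to 61.0). Of the 31, 19 (61.3%) held none of the 5 motifs, against 54.0%.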

How the data were processed

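The authors' files used were 4 peak lists in narrowPeak format on ce11: replicate 1, replicate 2, a pooled list and the IDR list made from these, per the deposited descriptions. Column 7 holds the signal of each peak, from the authors' caller and as deposited. The sources used here do not name the aligner, caller, IDR threshold or depth. The ce10 lists were not used. Coordinates are 1-based, on WBcel235 (ce11), with genes from Ensembl release 115 and sequence from RefSeq's copy of that assembly.

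Each summit, the peak start plus the summit offset, was placed against gene starts and ends with Python 3.11.15, numpy 2.4.6, pandas 2.3.3 and scipy 1.17.1. Placement was checked with summits set at known places. Replicate peaks were matched by an overlap of at least 1 bp, and the strongest match was taken. Intervals are exact binomial (Clopper-Pearson) 95% intervals over genes or summits and cover counting error only. Neighbouring genes can share a summit, so genes are not independent. No test was run, because there is 1 group. Every member with a summit in the gene, at the start or within 10 kb is named. The members, classes and lists were chosen with earlier results of these data known. The sequence at the intronic ceh-43 summit is not reported here.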

Additional observations from a re-analysis of the deposited data

How the results depend on the processing

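Of 22 alternative values over all counts and shares, 15 left the value within 1.5 times the reported count, or a share inside its interval, and 7 did not. With the 1377 strongest IDR peaks, 1 member had a start summit (against 2.86% of all genes), 2 had a summit inside (against 1.87%) and 10 had one within 10 kb (against 21.4%). A start window reaching 2000 bp upstream gave 5 members, against 8.89% of all genes. A reach of 20 kb gave 35 members (61.4%), against 55.0% of all genes, and counting a summit only for the gene of the nearest start gave 9, against 10.4%. Leaving out 1 replicate, by taking the 2754 strongest peaks of the other, gave 1 to 2 members at the start, 3 to 4 inside the gene and 21 to 23 within 10 kb, against 5.93% to 6.21%, 3.50% and 36.4% of all genes. Without replicate 1 the start summit of ceh-39 was lost and the intronic one of ceh-18 gave way to one in ceh-8, and without replicate 2 the intronic one of ceh-16 was lost. Within 10 kb, ceh-7, ceh-41 and ceh-88 were lost without replicate 1 and ceh-9, ceh-32, ceh-36, ceh-37 and ceh-62 were gained. The 2754 strongest pooled peaks were the same 2754 peaks as the IDR list and gave no separate value. The motif shares were set beside those of all nuclear summits, and for TGACAG and GAGAGA also beside windows 500 bp to the sides.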
